A study of Mus musculus with 4 samples.

Results

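The 37 genes described here belong to the unfolded protein response of the endoplasmic reticulum (ER) and to the integrated stress response. They were chosen by symbol, and 37 of 37 were found among the 21840 genes of the deposited table. The RNA came from 4T1, a line of mouse mammary carcinoma cells that the labels call epithelial and wild type, so both groups rest on 1 cell line. One group of 2 libraries was treated with phosphate-buffered saline (PBS) and one of 2 libraries with recombinant IL-17A (rIL17), an inflammatory cytokine. The sources used here give neither dose nor duration. The comparison asks how the tumor cells' transcripts differ after IL-17A. Values are normalized counts, which are reads per gene divided by 1 scaling factor per library.

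When unfolded proteins build up in the ER, the sensors IRE1 (gene Ern1), PERK (Eif2ak3) and ATF6 signal to the nucleus. XBP1, spliced by IRE1, and cleaved ATF6 raise chaperones, disulfide isomerases and components that pass misfolded proteins to the proteasome. PERK and related kinases phosphorylate the translation factor eIF2, which slows protein synthesis and favours translation of ATF4. ATF4 raises genes for amino acid synthesis, amino acid uptake and tRNA charging, and also Ddit3, Trib3 and Chac1. Splicing of Xbp1, cleavage of ATF6 and translation of ATF4 are not seen in counts per gene.

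A motif of ER stress genes was common in the chaperone promoters, while few amino acid genes held the motif searched for them. Windows from 250 bases before to 50 bases after the start were matched in RefSeq (GRCm38.p6) for 33 of the 37 members, with none matched for Atf6, Hyou1, Manf and Slc7a5. The ER stress response element (ERSE, CCAAT and CCACG with 9 bases of any kind between them, searched on both strands) was found in 7 of the 11 chaperone genes with a window, in Syvn1, and in 37 of all 27025 genes (0.137%). None of the 8 amino acid genes with a window held it. The core of the C/EBP-ATF response element (CARE, TGATGNAAN, both strands) was found in 2 of those 8 genes, in 0 of the 11 chaperone genes and in 4.5% of all genes. It was also found in Nupr1, Herpud1, Chac1 and Trib3, and no member held both motifs. These are matches of letters, not measured binding. The sites below show how the spacer differs while the fixed letters, in capitals, stay. Each is read 5′ to 3′ on the strand that holds the motif.
Hspa5 (chr2:34772025-34772043): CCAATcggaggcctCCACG
Hsp90b1 (chr10:86705638-86705656): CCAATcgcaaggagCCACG
Dnajc3 (chr14:118937827-118937845): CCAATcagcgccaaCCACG
Pdia6 (chr12:17266491-17266509): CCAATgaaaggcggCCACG
Canx (chr11:50325800-50325818): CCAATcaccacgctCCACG
Syvn1 (chr19:6046532-6046550): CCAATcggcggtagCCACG
Nupr1 (chr7:126625573-126625581): TGATGcAAt
Chac1 (chr2:119351048-119351056): TGATGcAAc
Asns (chr6:7693224-7693232): TGATGaAAc

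The 250 bases before the RefSeq start are printed for Hspa5, the most abundant chaperone gene here, and for Slc7a11, the amino acid gene whose values stood apart. For Hspa5 that start lies inside the gene span given below, which is from GENCODE. Capitals mark the ERSE in Hspa5 (chr2:34771840-34772089, plus strand) and both CARE cores in Slc7a11 (chr3:50443614-50443863, minus strand), the second of which lies on the opposite strand.
Hspa5: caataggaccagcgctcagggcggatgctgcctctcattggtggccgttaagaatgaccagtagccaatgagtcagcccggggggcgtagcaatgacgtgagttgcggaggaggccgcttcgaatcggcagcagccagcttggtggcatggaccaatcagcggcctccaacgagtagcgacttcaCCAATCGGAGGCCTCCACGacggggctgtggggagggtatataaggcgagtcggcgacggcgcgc
Slc7a11: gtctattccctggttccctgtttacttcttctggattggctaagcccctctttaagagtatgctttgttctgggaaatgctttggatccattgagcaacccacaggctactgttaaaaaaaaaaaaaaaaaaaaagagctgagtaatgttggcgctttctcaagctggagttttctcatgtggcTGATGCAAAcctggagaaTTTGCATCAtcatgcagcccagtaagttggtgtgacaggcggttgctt

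Dividing each library's values by its smallest step gave 17511450 to 17970104 reads assigned to genes, an estimate of depth that could not be checked further because the steps lie close to 1. PBS replicate 2 stood apart from PBS replicate 1 along transcript GC content, which is taken up after the members' values. Among epithelial markers, Krt8 and Krt18 were abundant and Epcam ranged from 76.6 to 135 normalized counts. The 6 markers summed to 49500 to 53138 in PBS and to 41767 to 43463 in rIL17, nearly all from Krt8 and Krt18. Epcam overlapped between groups. Cdh1 (139 to 208), Cldn7 (38.1 to 41.2) and Cldn4 (7.04 to 19.6) had few counts and lay lower in rIL17. Of 6 leukocyte markers, 2 were in the table. Ptprc was without reads in PBS and reached at most 3.02 normalized counts in rIL17. Cd68, by contrast, was detected in every library, with a range of 108 to 127 normalized counts. Of 6 fibroblast markers 4 were in the table, summing to 2418 to 2536 in PBS and 2908 to 2920 in rIL17, nearly all from Pdgfra. The part of these shifts in the results was not tested. In bulk RNA, fewer cells of a type and less RNA per cell cannot be told apart.

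The stress response genes were expressed throughout, differed little between the groups, and leaned lower in rIL17. All 37 passed the low-value filter, a group mean of 1 normalized count or more in either group, so none was left out. Of them, 28 were lower and 9 higher in rIL17, with a median log2 fold change of -0.08, against 47.2% lower and a median of 0.01 over all 20677 genes tested. By limma, 0 members had an adjusted p below 0.05, as did 0 (0%) of all genes. A stricter filter asked for 10 or more normalized counts in both libraries of a group and a mean CPM of 1 or more. Under it, 0 of 37 members and 101 of 12515 genes (0.807%) passed. At an unadjusted p below 0.05 stood 9 members, 7 lower and 2 higher, where 12.8% of all genes stood. With limma-voom 0 members passed, where 0.00484% of genes did, and with GC correction 0 passed, where 0.479% did. Under the stricter filter without PBS replicate 2, a fit added after the data were seen, Slc7a11 and Dnajb9 passed, where 5.52% of genes did.

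The groups did not overlap for 23 of the 37 members, where 45.4% of all genes did not. In 19 of them the rIL17 libraries were the lower pair and in 4 the higher pair. Over all genes these shares were 20.0% below and 25.4% above. With upper-quartile scaling in place of the authors' scaling, the shares over all genes turned to 28.7% below and 18.3% above (47.0% in all), and the members' counts to 25 below and 3 above. With 2 libraries per group these counts are descriptions.

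**Figure D1:**
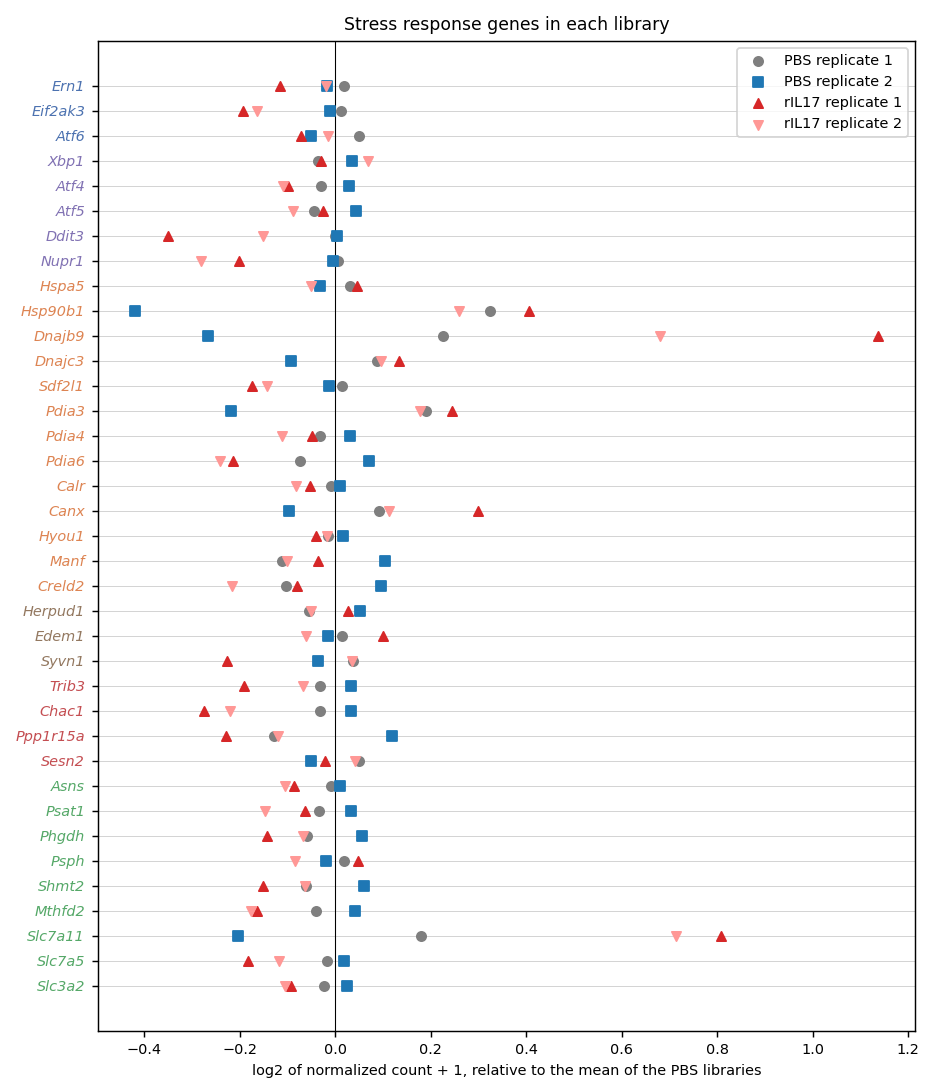
Each row is a gene and each symbol a library; the horizontal axis is log2(normalized count + 1) relative to the mean of the PBS libraries, and gene names are coloured by role. Most rows show both rIL17 libraries slightly left of both PBS libraries, while Slc7a11 and Dnajb9 lie far to the right, and PBS replicate 2 is the low point of Hsp90b1, Pdia3, Dnajb9 and Slc7a11.

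The sensors and their transcription factors did not pass. Ern1 had 2350 and 2292 normalized counts in PBS and 2142 and 2291 in rIL17, with the highest rIL17 library just below the lower PBS library. Eif2ak3, encoding PERK, had 391 and 385 in PBS against 339 and 346 in rIL17. The groups did not overlap, and the log2 fold change was -0.18 (SE 0.06, adjusted p = 0.39). Atf6 overlapped between groups, at 3988 and 3716 against 3666 and 3810. The level of Xbp1 was also shared, at 1930 and 2027 in PBS and 1937 and 2075 in rIL17.

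Atf4 (ENSMUSG00000042406, mm10 chromosome 15, 80255184 to 80257541, plus strand), the central factor of the integrated stress response, had 10556 and 10990 normalized counts in PBS and 10054 and 9977 in rIL17. Both rIL17 libraries were lower, by 7.03% at the mean (log2 fold change -0.10, SE 0.04, adjusted p = 0.418), and the groups overlapped after correction for GC content (-0.04). Ddit3, encoding the ATF4-induced factor CHOP, had 588 and 589 in PBS against 461 and 529 in rIL17, which did not overlap. Its log2 fold change was -0.25 (SE 0.09, adjusted p = 0.397) and ran from -0.35 to -0.15 with each library left out, -0.35 being the value without rIL17 replicate 2 and -0.15 that without rIL17 replicate 1. Nupr1, a stress-induced transcriptional cofactor gene, had 1468 and 1459 in PBS against 1271 and 1203 in rIL17. Its groups stood apart, with a log2 fold change of -0.24 (SE 0.05, adjusted p = 0.373). Atf5, a factor related to ATF4, overlapped between groups (log2 fold change -0.06).

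Of the 4 integrated stress response feedback and effector genes, 3 were lower in rIL17, 2 of them without overlap, and 0 passed. Over all genes, 20.0% lay below without overlap. Chac1, encoding an enzyme that degrades glutathione, had 2408 and 2519 normalized counts in PBS and 2034 and 2113 in rIL17. This was 15.8% less at the mean, with no overlap (log2 fold change -0.25, SE 0.05, 95% confidence interval -0.39 to -0.10, unadjusted p = 0.00969 and adjusted p = 0.373 by limma). Trib3, encoding a pseudokinase that restrains ATF4 and CHOP, had 4515 and 4723 in PBS against 4046 and 4406 in rIL17, also without overlap. Ppp1r15a, encoding the GADD34 subunit that directs dephosphorylation of eIF2, overlapped (397 and 471 against 370 and 399), as did Sesn2, encoding the mTORC1 inhibitor sestrin-2 (1137 and 1060 against 1082 and 1130).

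The 13 ER chaperone and folding genes had no common direction: 8 were lower and 5 higher, with a median log2 fold change of -0.03. In 5 both rIL17 libraries lay below PBS and in 3 above, where 20.0% and 25.4% of all genes did. Per kilobase of exon, Hspa5 was the most abundant of the 37 members, at 8718 normalized counts per kilobase in PBS, and Dnajb9 the least, at 53.0. Hspa5 (ENSMUSG00000026864, chromosome 2, 34771970 to 34777547, plus strand) encodes BiP, the chaperone that holds the sensors inactive. It had 37672 and 36065 normalized counts in PBS and 38019 and 35576 in rIL17. The rIL17 libraries enclosed the PBS libraries, and the 95% confidence interval of its log2 fold change ran from -0.17 to 0.16.

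Dnajb9, encoding the BiP co-chaperone ERdj4, had 158 and 112 normalized counts in PBS and 298 and 217 in rIL17, a ratio of 1.90. The groups did not overlap, and the log2 fold change was the highest of the 37 (0.93, SE 0.26, 95% confidence interval 0.17 to 1.68, adjusted p = 0.373). It was 0.68 without PBS replicate 2 and 0.51 after GC correction (adjusted p = 0.272). This is the member with the lowest counts and the lowest transcript GC content, 40.6%.

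Hsp90b1 and Pdia3 had higher means in rIL17 that nearly vanished without PBS replicate 2. Hsp90b1, encoding the ER form of HSP90 (GRP94), had 12045 and 7187 normalized counts in PBS and 12741 and 11509 in rIL17. PBS replicate 1 lay between the rIL17 libraries, and the log2 fold change of 0.38 (SE 0.28) was 0.01 without PBS replicate 2. Of its exon bases, 5.38% on the same and 10.3% on the opposite strand are shared with other annotated genes, so its count is less certain. Pdia3, encoding a disulfide isomerase that acts on glycoproteins, had 13098 and 9876 in PBS against 13616 and 12991 in rIL17. Its log2 fold change of 0.23 (SE 0.16) was 0.02 without that library, but 0.20 without overlap after GC correction with all 4 libraries. For Hsp90b1 the GC-corrected value was 0.10, with overlap.

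Canx and Dnajc3 also changed in size with that library, and in sign with the GC correction. Canx, encoding the lectin chaperone calnexin, had 9167 and 8051 in PBS against 10584 and 9305 in rIL17 (log2 fold change 0.21, 0.11 without PBS replicate 2 and -0.06 after GC correction). Dnajc3, encoding a BiP co-chaperone, had a log2 fold change of 0.12, which became 0.03 and -0.07. Neither passed under any of these.

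Among the chaperone genes that were lower, Pdia6 had the largest difference. Pdia6, encoding a disulfide isomerase that also acts on the sensors, had 10552 and 11659 normalized counts in PBS and 9575 and 9399 in rIL17. The groups did not overlap (log2 fold change -0.23, SE 0.07, adjusted p = 0.373), and the value was -0.15 without PBS replicate 2 and -0.21 after GC correction. Sdf2l1, encoding an ER protein that works with BiP co-chaperones, had 724 and 710 against 635 and 649 (log2 fold change -0.16, SE 0.05). Pdia4, Calr, which encodes calreticulin, and Hyou1, encoding an HSP110-type exchange factor, had log2 fold changes of -0.08, -0.07 and -0.03 without overlap. Hyou1 turned to 0.03 after GC correction. The secreted stress-induced proteins Manf and Creld2 overlapped between groups (-0.06 and -0.14). The genes of ER-associated degradation overlapped between groups throughout. Herpud1 and Syvn1, parts of the HRD1 ubiquitin ligase complex, and Edem1, a lectin-like factor for misfolded glycoproteins, had log2 fold changes of -0.01, -0.10 and 0.02.

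**Figure D2:**
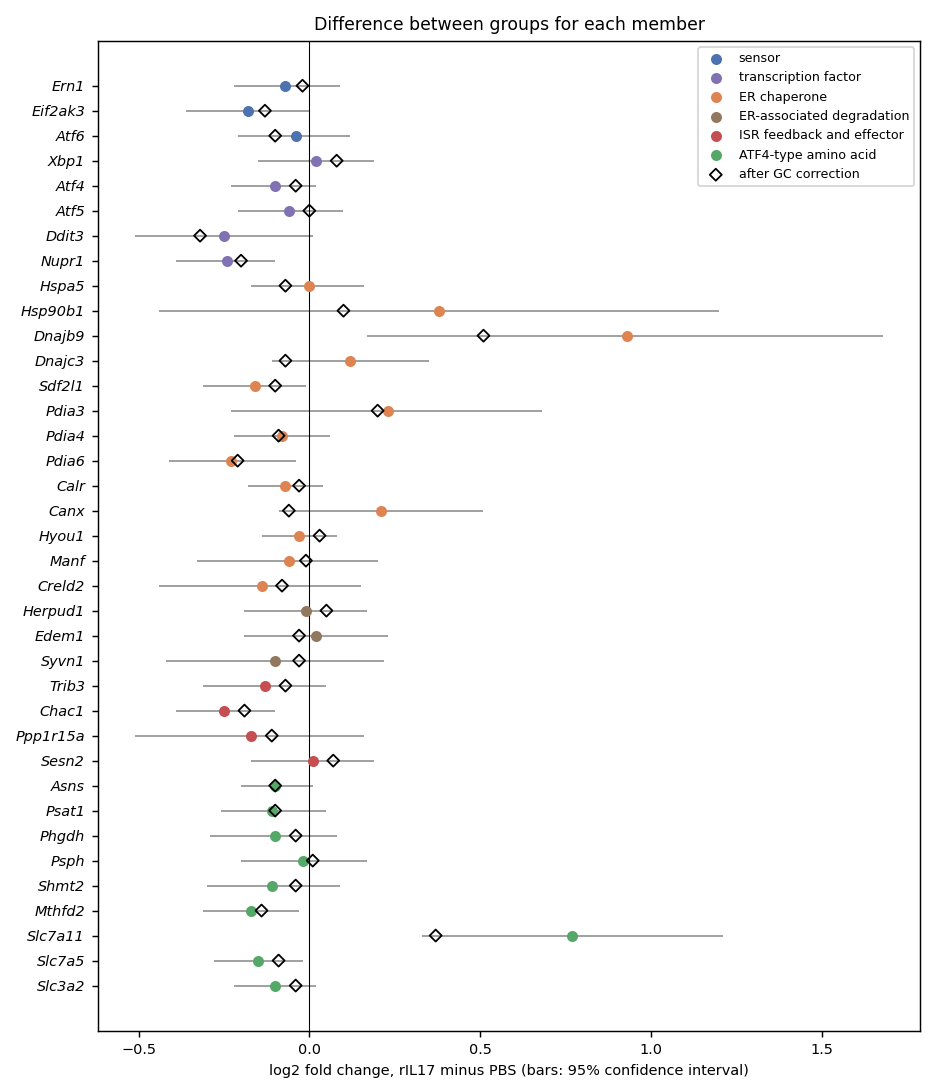
Filled points are log2 fold changes (rIL17 minus PBS) by role with 95% confidence intervals from limma, and open diamonds are the same after GC correction. The amino acid genes other than Slc7a11 lie between -0.17 and -0.02, whereas the chaperones spread from -0.23 to 0.93 and the diamonds of Dnajb9, Hsp90b1, Canx and Slc7a11 lie well to the left of their points.

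Of the 9 ATF4-type amino acid genes, 8 were slightly lower in rIL17, 7 of them without overlap, and Slc7a11 was higher. The share of all genes that lay below without overlap was 20.0%. The median log2 fold change was -0.10. Asns, encoding asparagine synthetase, had 7334 and 7429 normalized counts in PBS and 6951 and 6863 in rIL17, or 6.43% less (log2 fold change -0.10, SE 0.04, adjusted p = 0.415). The serine synthesis gene Psat1 had 11795 and 12351 against 11550 and 10902, and Phgdh, the first step of that pathway, 8469 and 9177 against 7987 and 8414. The last step, Psph, overlapped (log2 fold change -0.02), and 10.4% of its exon bases lie opposite Cct6a.

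Both mitochondrial one-carbon genes among the 9, Mthfd2 and Shmt2, were lower without overlap, while 2 others of the further list were not (Aldh1l2 at a log2 fold change of 0.06 and Mthfd1l at 0.00, chosen after their values were seen). Mthfd2 had 2853 and 3019 normalized counts in PBS and 2620 and 2597 in rIL17. This was the most negative log2 fold change of the 9, at -0.17 (SE 0.05, adjusted p = 0.373). Shmt2, which turns serine into glycine there, had 9083 and 9886 against 8537 and 9079, so that the groups stood apart by only a few counts. The large neutral amino acid transporter gene Slc7a5 had 9083 and 9317 in PBS against 8103 and 8476 in rIL17, without overlap, a log2 fold change of -0.15 (SE 0.05, adjusted p = 0.373). Its partner Slc3a2, the shared heavy chain, had 7149 and 7394 against 6820 and 6758.

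Slc7a11 (ENSMUSG00000027737, chromosome 3, 49892526 to 50443614, minus strand) went against the other amino acid genes. It encodes xCT, the light chain that pairs with the Slc3a2 product to import cystine in exchange for glutamate. It had 1348 and 1034 normalized counts in PBS and 2086 and 1954 in rIL17. Both rIL17 libraries were far above both PBS libraries, a ratio of 1.70 (1191 ± 222 to 2020 ± 93.5, SD, n = 2 per group). The log2 fold change was 0.77 (SE 0.15, 95% confidence interval 0.33 to 1.21) with a limma adjusted p of 0.37. It ran from 0.58 without PBS replicate 2 to 0.96 with each library left out, and was 0.37 after GC correction (limma adjusted p = 0.057). It passed with robust shrinkage (limma adjusted p = 0.036), where 1.30% of all genes did. It also passed under the stricter filter with GC correction (limma adjusted p = 0.0229), where 2.41% did, a combination chosen after the data were seen. Per kilobase, Slc7a11 in PBS stood at 85.6 and Slc3a2 at 2060 normalized counts.

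Set side by side, the median log2 fold change was -0.03 for the chaperones, -0.10 for the amino acid genes and 0.01 for all genes. Without PBS replicate 2 the chaperone median was -0.01, and without rIL17 replicate 1 it was -0.05. The difference of the medians, chaperones minus amino acid genes, was 0.08. When each gene was centred on its mean over the 4 libraries, chaperones minus amino acid genes came to -0.01 and -0.06 in PBS and to 0.04 and 0.01 in rIL17. After GC correction the medians were -0.06 and -0.04, so that the difference turned to -0.02. The amino acid genes kept 7 of 9 genes below PBS without overlap after that correction, where 23.1% of all genes lay below. The chaperones had 6 of 13 below and 3 above, where 21.8% of all genes lay above and 44.9% did not overlap in either direction. No test compares the lists, whose genes share the same 4 libraries.

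**Figure D3:**
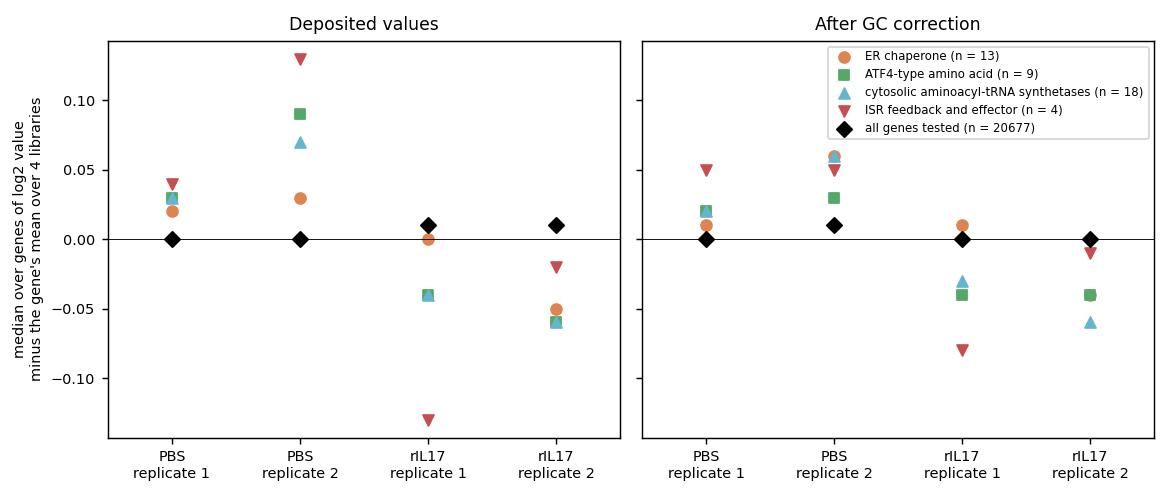
Points are the median, over the genes of a list, of log2 value minus the gene's mean over the 4 libraries, shown for each library before and after GC correction. The amino acid genes and the tRNA synthetases lie above 0 in both PBS libraries and below 0 in both rIL17 libraries in both panels, while the chaperone points before correction are 0.02 and 0.03 in PBS and 0 and -0.05 in rIL17.

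The members with the lowest transcript GC content were higher in rIL17, while the medians differed little from 46% GC up. Of the 4 members below 43% GC, namely Dnajb9, Slc7a11, Hsp90b1 and Canx, all 4 were higher in rIL17, with a median log2 fold change of 0.58. The 1984 genes of that range that passed the stricter filter had a median of 0.34. Among the 11 members at 55% or more, 10 were lower, with a median of -0.11 beside -0.06 over 2784 genes. Between these ranges, the 3 members at 43 to 46% had a median of 0.0, beside 0.09 over all genes of that range. The 10 members at 46 to 50% had -0.09 beside -0.01, and the 9 at 50 to 55% had -0.07 beside -0.06. Within the PBS group itself, replicate 2 lay below replicate 1 by 0.33 on the log2 scale at the median of genes below 43% GC, and above it by 0.08 at 55% or more. Over the 37 members, which share the same 4 libraries, GC content and log2 fold change had a Pearson r of -0.61 and a Spearman rho of -0.48, given as a description. After GC correction with all 4 libraries, r was -0.31 and rho -0.06. Without PBS replicate 2, r was -0.48 and rho -0.34. Without that library, genes passing the stricter filter had a median log2 difference of 0.16 below 43% GC and -0.02 at 55% or more. The bounds of the GC ranges were chosen after the data were seen.

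**Figure D4:**
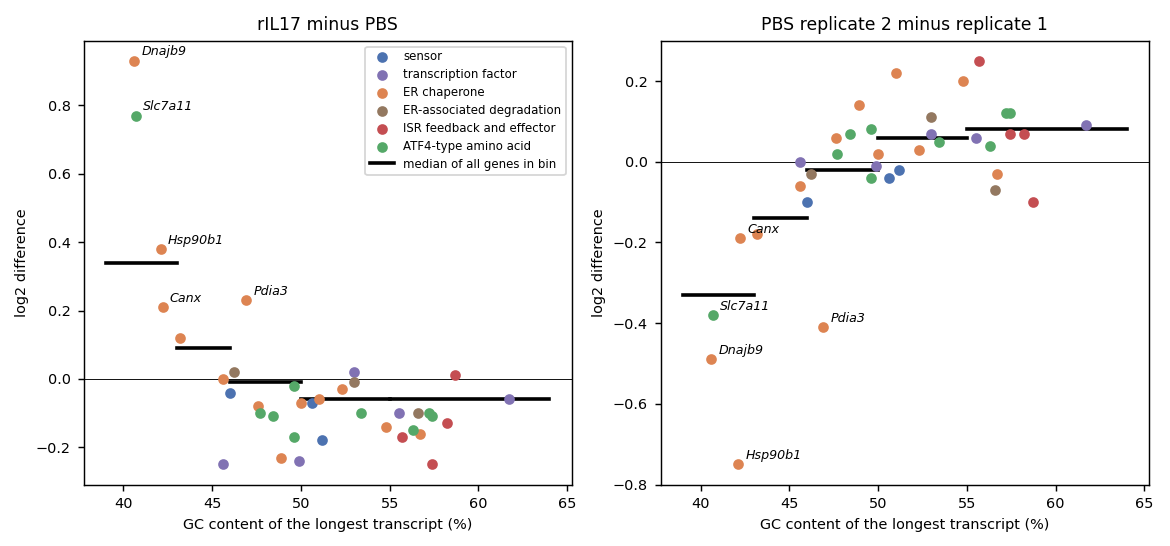
Each point is a member, placed by the GC content of its longest transcript and by the log2 difference between groups (left) or between the PBS libraries (right), with black bars for the median of all genes in each GC range. Slc7a11 and Dnajb9 lie above the bar of their range on the left, whereas Hsp90b1 lies near it and Canx below it.

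Further genes of the pathways were taken as whole lists. Of 18 cytosolic aminoacyl-tRNA synthetase genes, which charge tRNAs and include many ATF4 targets, 15 were lower. In 13 both rIL17 libraries lay below PBS, where 20.0% of all genes did. The median log2 fold change was -0.11. The list kept a median of -0.09 after GC correction and -0.07 without PBS replicate 2, and 0 passed in limma with or without the stricter filter. Aars had 8734 and 9066 normalized counts in PBS and 8009 and 7933 in rIL17. Cars had 4017 and 4348 against 3709 and 3563. Rars had a log2 fold change of -0.12. None of these 3 genes overlapped between groups.

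Other amino acid and one-carbon genes were lower in 14 of 17, with a median of -0.11, and 0 passed. Without overlap, 11 lay below PBS and 1 above, where 20.0% and 25.4% of all genes did. After GC correction 11 were lower, with a median of -0.06. Of them 7 lay below PBS without overlap, where 23.1% of all genes did. The median was also -0.06 without PBS replicate 2, and -0.17 without PBS replicate 1. Slc7a1, a cationic amino acid transporter gene, had 5468 and 5528 in PBS against 4856 and 4973 in rIL17, a log2 fold change of -0.16 (SE 0.04, limma adjusted p = 0.373). Pycr1 of proline synthesis and the aspartate aminotransferase gene Got1 had -0.16 and -0.17. The other eIF2 kinases and response factors were mixed, with 7 of 16 lower, 9 higher and 0 that passed. Their median was 0.08, or 0.02 under the stricter filter. Without overlap 3 lay below PBS and 4 above, where 20.0% and 25.4% of all genes did. Atf3, an ATF4-induced factor, had 228 and 228 normalized counts in PBS and 184 and 177 in rIL17, 0.79 of the PBS level (log2 fold change -0.34, SE 0.08, adjusted p = 0.373). Jdp2 had -0.24, and Eif2ak4, encoding the amino acid sensor GCN2, -0.18. These were the 3 that lay below PBS without overlap.

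In other ER folding, translocation and degradation genes, 16 of 26 were higher, 12 without overlap where 25.4% of all genes lay above, and 1 passed under the stricter filter. With upper-quartile scaling 12 were higher and 14 lower. Without overlap 8 then lay above PBS and 7 below, where 18.3% and 28.7% of all genes did. The list median turned from 0.04 to -0.01, while the median of all genes went from 0.01 to -0.05. The gene that passed was Ero1l (ENSMUSG00000021831, chromosome 14, 45283087 to 45318771, minus strand), encoding the oxidase that reoxidises protein disulfide isomerase. It had 5608 and 4643 normalized counts in PBS and 8915 and 8398 in rIL17, a ratio of 1.69, without overlap. Its log2 fold change was 0.76, with a limma adjusted p of 0.37 over all genes tested, 0.0369 under the stricter filter, and 0.024 with the GC correction, where the log2 fold change was 0.45. Hspa13, an ER-associated HSP70 gene with a transcript GC content of 39.8%, had 1212 and 960 against 1763 and 1579 (log2 fold change 0.63, 0.13 after GC correction), and passed with robust shrinkage (limma adjusted p = 0.0464). Selenok had 0.19.

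The remaining lists had 0 genes that passed in either filter. Other ER sensors and proteases had 4 of 9 tested genes higher, with Atf6b at -0.14, the site-1 protease gene Mbtps1 at -0.11 and Creb3l2 at 0.11. Targets of IRE1-dependent mRNA decay were lower in 3 of 5. Bloc1s1, the best known of them, had 9.81 and 4.97 normalized counts in PBS and 18.1 and 14.0 in rIL17, Pdgfrb a log2 fold change of -0.47 and Col6a1 one of -0.08. Cytosolic heat shock genes, a list that includes the factor gene Hsf1 itself, were higher in 6 of 12, with a median of 0. Among these, Dnaja1 had 0.20 (-0.15 after GC correction), Hsph1 -0.14 and Hspa1b 0.20, the last being uncertain because the near-identical Hspa1a can share its reads. Mitochondrial chaperones and proteases were lower in 7 of 9, with Clpp at -0.22, Hspe1 at 0.23 and Trap1 at -0.10. Without PBS replicate 2 these 3 values were -0.06, 0.06 and -0.03.

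**Figure D5:**
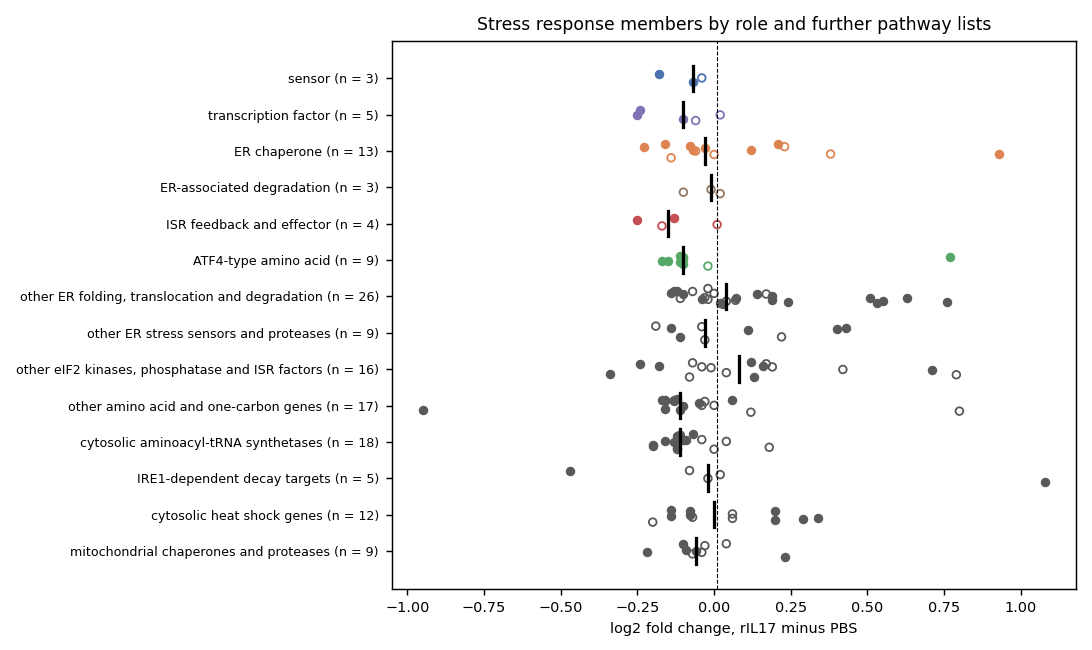
Each point is a gene's log2 fold change (rIL17 minus PBS); filled points do not overlap between groups, bars are list medians, and the dashed line is the median of all genes tested. The amino acid genes and tRNA synthetases lie mostly left of the line with medians of -0.10 and -0.11, Slc7a11 apart, and the folding genes have long tails to the right.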

How the data were processed

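The deposited values, 1 column for each of 4 libraries, are a normalized signal made by the authors. In each library they were whole multiples of 1 step between 0.9811 and 1.0053 (100.0% of values above 0, within 0.001 of the multiple), as read counts divided by a scaling factor give. CASAVA, HISAT2 2.0.5, featureCounts 1.5.0-p3 and mm10 are named per the submitters' processing notes; for annotation release, strand setting and scaling tool, nothing is given in the sources used here. Libraries came from a directional kit, per the labels' protocols.

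Symbols, coordinates and transcript GC content were taken from GENCODE M21 (mm10), with 21819 of 21840 genes matched. Genes with a mean of at least 1 in 1 group were tested with limma 3.58.1 (R 4.3.3, mean-variance trend) on log2 of the normalized count plus 1. The model held treatment alone, and p-values were adjusted by Benjamini-Hochberg over all genes. Fold changes are on that scale, which understates low genes. The GC correction subtracted a loess fit (span 0.3) of each library's deviations on GC content. The text names all 37 members and, of each further list, the 3 genes with the smallest p and those that passed. Members and lists were chosen with earlier results of these data known. The main and stricter fits were tried on simulated counts without a GC trend, and the GC correction on simulated counts with a trend planted in 1 library. This cannot show how the fits behave where a library departs along GC content. The labels do not say whether libraries are separate cultures, so the spread behind the p-values may be technical. Alternatives were another pseudocount (0.1), no filter, a stricter filter, upper-quartile scaling, limma-voom, robust shrinkage, GC correction, the replicate block and leaving out each library. The stricter filter with GC correction or without PBS replicate 2, and the GC ranges, were added after the data were seen. Of the 33 members with a promoter, 2 had several windows, and all were searched.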

Additional observations from a re-analysis of the deposited data

How the results depend on the processing

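With 0 genes called in the main analysis, the count over all genes was 101 under the stricter filter, 99 with GC correction, 70 with GC correction and the replicate block, 268 with robust shrinkage, 1 with limma-voom, 1 with upper-quartile scaling, 302 under the stricter filter with GC correction, and 692 under the stricter filter without PBS replicate 2. It stayed 0 with each library left out under the main filter. Members called were 1 (Slc7a11) with robust shrinkage, 1 (Slc7a11, log2 fold change 0.37) under the stricter filter with GC correction, and 2 (Slc7a11, 0.58, and Dnajb9, 0.68) under the stricter filter without PBS replicate 2, where the lone PBS library was assumed to vary like the rIL17 libraries. The median of the members, -0.08, was -0.04 with GC correction, with or without the replicate block or the stricter filter, -0.13 with upper-quartile scaling, -0.05 under the stricter filter without PBS replicate 2, and -0.11 to -0.05 with each library left out. The chaperone median, -0.03, was -0.06 in the GC-corrected fits, -0.08 with upper-quartile scaling, and -0.05 to -0.01 with each library left out. The amino acid median, -0.10, was -0.04 in the GC-corrected fits, -0.15 with upper-quartile scaling, and -0.14 to -0.07 with each library left out. The median of all genes moved too, from 0.01 to -0.05 with upper-quartile scaling and to -0.01 with GC correction. The chaperone minus amino acid difference, 0.08, turned to -0.02 with GC correction, with or without the replicate block or the stricter filter, and was 0.05 to 0.09 with each library left out. In the same 3 GC-corrected fits the sign turned for Atf5 (0.00, just above 0), Dnajc3 (-0.07), Canx (-0.06), Hyou1 (0.03), Herpud1 (0.05), Edem1 (-0.03) and Psph (0.01). With upper-quartile scaling it turned for Xbp1 (-0.03), Edem1 (-0.03) and Sesn2 (-0.04), and under the stricter filter without PBS replicate 2 for Manf (0.04), Herpud1 (0.04) and Sesn2 (-0.04). With each library left out, values ran from -0.09 to 0.01 for Atf6, -0.03 to 0.07 for Xbp1, -0.05 to 0.04 for Hspa5, -0.17 to 0.04 for Manf, -0.07 to 0.04 for Herpud1, -0.06 to 0.10 for Edem1, -0.23 to 0.03 for Syvn1, -0.04 to 0.06 for Sesn2 and -0.08 to 0.05 for Psph. The cause of these changes was not tested. The sign of 24 of 37 members held under every alternative run. The replicate number as a block alone changed no call among members and left 0 genes called. Same-numbered libraries had deviations with a correlation of 0.16 over 12515 genes, and the labels do not say that a number marks a shared culture. The planned count test on recovered whole reads was not run.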
